A study of Mus musculus with 8 samples.

Results

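The 8 genes *Ripk1*, *Ripk3*, *Mlkl*, *Casp8*, *Casp12*, *Gsdmd*, *Bcl2l1* and *Mcl1* encode effectors and guards of apoptosis, necroptosis and pyroptosis, and were taken by gene symbol from the 55385 genes of a liver RNA-seq count table. Each symbol matched 1 gene. The livers came from male mice aged 5 weeks after a fast of 16 h, 4 *Usp39*-HKO mice and 4 control littermates, with 1 library per mouse. In *Usp39*-HKO mice (*Usp39* fl/fl crossed to *Albumin*-Cre, C57BL/6J background), exon 2 of *Usp39*, a component of the spliceosome, is flanked by *loxP* sites. This exon is removed where the albumin promoter is active, and the study describes the deletion as specific to hepatocytes. Whether other cells of the liver kept the gene was not tested here. The labels call the control mice WT, and whether they carried floxed alleles was not given in the sources used here.

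In the extrinsic pathway, death receptors of the TNF family assemble RIPK1 with the adaptor FADD and caspase-8, which either starts the apoptotic caspase cascade or holds necroptosis in check. When caspase-8 is blocked, RIPK1 and RIPK3 form a complex that phosphorylates MLKL, and MLKL then ruptures the plasma membrane. Pyroptosis ends in pores of gasdermin D, cut open by inflammatory caspases, while BCL-XL (*Bcl2l1*) and MCL-1 restrain the pore proteins BAX and BAK of the mitochondrial pathway. Hepatocytes depend on both BCL-XL and MCL-1 for survival, and *Ripk3* is known to be low in hepatocytes of the healthy liver. These proteins are switched by cleavage, phosphorylation and assembly, none of which a count of transcripts measures.

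Counts on genes summed to between 8589636 and 10418450 per liver. Levels are given as deposited FPKM (fragments scaled to exon length and library total). The genotypes were compared by fitting the raw counts in edgeR (quasi-likelihood F-test, TMM scaling between libraries) and adjusting p-values by Benjamini-Hochberg over 14340 genes, those that reached 0.5 FPKM in 4 or more livers. TMM takes out a shift of the median gene, which without it lay 0.24 above control in *Usp39*-HKO livers (log2), so that log2 fold changes are relative to the median gene and FPKM are not. *Usp39* measured 9.58 ± 0.71 FPKM in control and 8.44 ± 0.29 FPKM in *Usp39*-HKO livers (SD, n = 4 each), a log2 fold change of −0.41 (edgeR, adjusted p = 0.0212). This level is a total over 13 merged exons and does not measure the removal of exon 2 by itself. The study assessed the knockout by immunoblot of liver, primary hepatocytes and other tissues, and by qPCR of liver. The liver of control mouse A475 stood apart, with a summed level of 6 pancreas genes of 515 FPKM against 2.45 to 4.72 FPKM in the other 7 livers, and results are therefore also given without it.

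All 8 genes passed the filter on low values. At an adjusted p under 0.05 in edgeR, 4 of the 8 genes were higher in *Usp39*-HKO livers (*Ripk3*, *Mlkl*, *Casp12* and *Mcl1*) and 0 were lower, where 10.9% of all genes tested were called higher and 11.6% lower. At an unadjusted p under 0.05, 1 gene was lower (*Gsdmd*), and DESeq2 and limma each called 0 lower. The 3 genes with the lowest levels in control livers, *Casp12*, *Ripk3* and *Mlkl*, had the largest log2 fold changes, 1.11, 1.0 and 0.86. *Mcl1*, the most abundant, had a smaller one of 0.36. *Ripk1*, *Casp8* and *Bcl2l1* had log2 fold changes between 0.20 and 0.27 and *Gsdmd* of −0.35, none of which reached the threshold. The median log2 fold change of the 8 genes was 0.32, against −0.0015 for all genes tested. Without control mouse A475, 2 of the 8 genes were called (*Ripk3* and *Mlkl*), where 7.11% of genes tested were called higher, and the same 2 genes were called without *Usp39*-HKO mouse A474, where 7.19% were, and without control mouse A473. Without TMM scaling 7 of the 8 genes were called, all higher, where 24.6% of genes tested were. In limma on log2(FPKM + 1) 6 were called, against 21.1% of genes tested, and with no filter on low values 3 were, against 6.41%. DESeq2 called 4, against 12.1%. In FPKM, all 4 *Usp39*-HKO livers lay above all 4 control livers for 6 of the 8 genes and below them for 0, against 23.9% and 4.81% of genes tested. In TMM-scaled counts the groups were apart for 5 of the 8 genes, all higher, against 11.9% of genes tested higher and 12.9% lower.

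**Figure D1:**
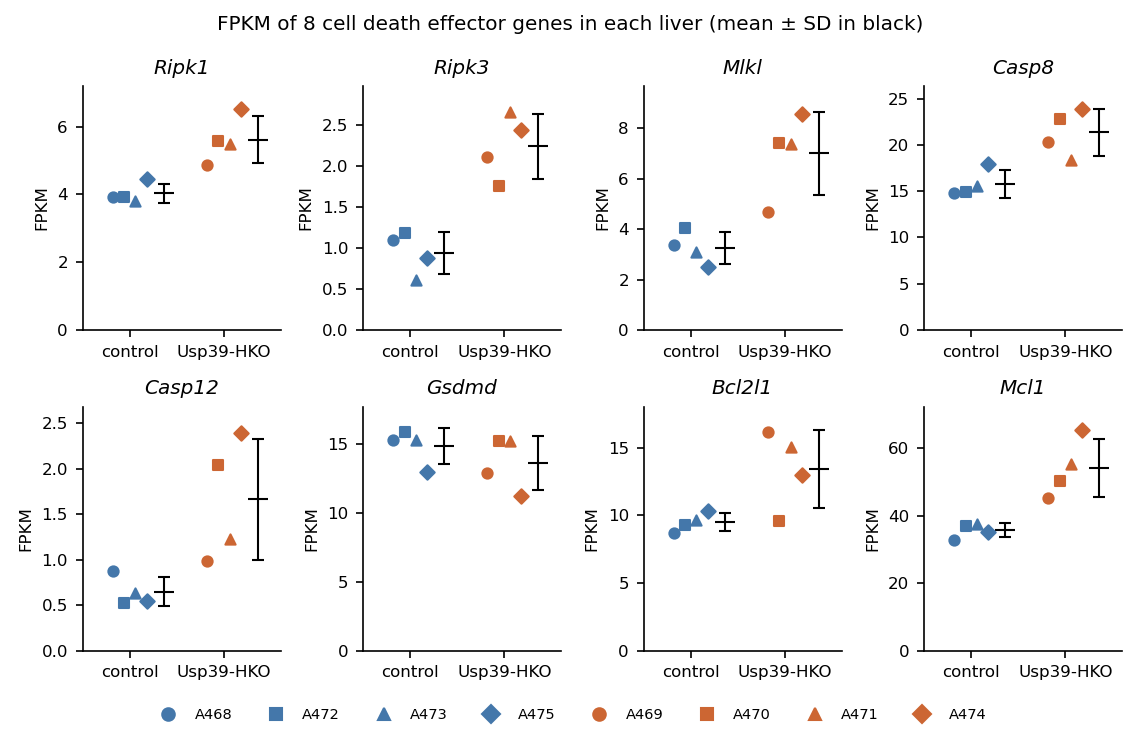
FPKM (vertical axes, from 0, one scale per gene) of the 8 genes in the 4 control livers (blue) and the 4 *Usp39*-HKO livers (orange), with a marker for each mouse and the mean ± SD in black. The groups are apart for *Ripk1*, *Ripk3*, *Mlkl*, *Casp8*, *Casp12* and *Mcl1* and overlap for *Gsdmd* and *Bcl2l1*.

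**Figure D2:**
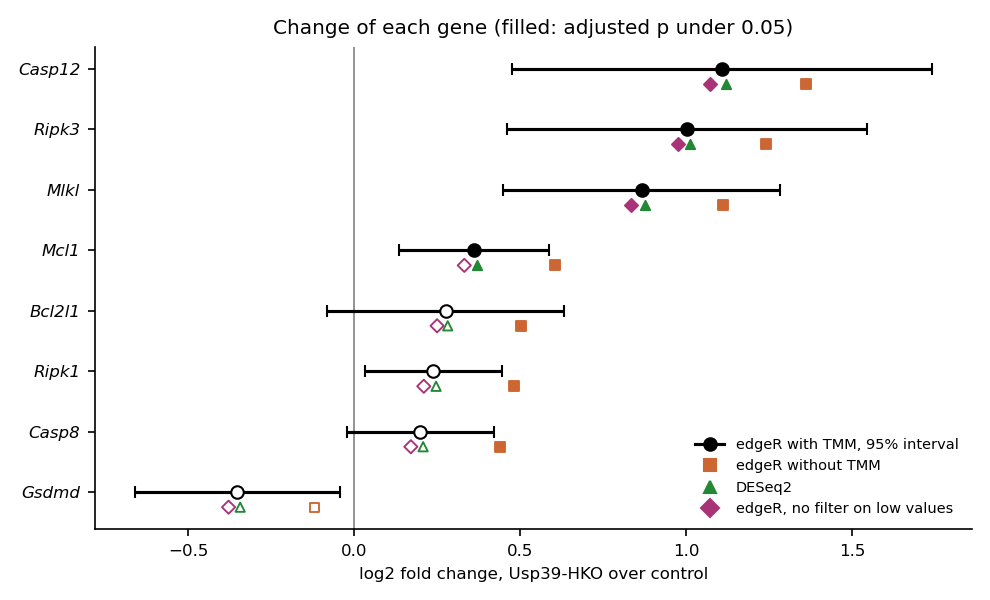
Change of each gene between genotypes (horizontal axis, log2 of *Usp39*-HKO over control) in edgeR with TMM scaling (black circles, with 95% intervals), and below it in edgeR without TMM (squares), in DESeq2 (triangles) and in edgeR with no filter on low values (diamonds). Filled symbols have an adjusted p under 0.05, and without TMM every value moves up by about the same step, from −0.35 to −0.12 for *Gsdmd* and from 1.11 to 1.36 for *Casp12*.

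The sequence upstream of the start site of the 4 genes called higher is given as in the RefSeq promoter table (GRCm38, on the strand of the gene, 5′ to 3′), without bases that GENCODE vM21 counts as exon. Capitals mark matches, on either strand, to 4 motifs: the interferon-stimulated response element core (GAAA repeated after a gap of 2 bases), the gamma-activated site TTCNNNGAA, the GC box GGGCGG and the ATF4-CHOP element core TGATGNAA.
Ripk3, chr14:55788866-55789107, minus strand: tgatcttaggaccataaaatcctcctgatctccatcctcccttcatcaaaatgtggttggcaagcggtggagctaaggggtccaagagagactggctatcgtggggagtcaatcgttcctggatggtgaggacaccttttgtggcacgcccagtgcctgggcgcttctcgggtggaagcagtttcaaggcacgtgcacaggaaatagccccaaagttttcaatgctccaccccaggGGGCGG
Mlkl, chr8:111338206-111338455, minus strand: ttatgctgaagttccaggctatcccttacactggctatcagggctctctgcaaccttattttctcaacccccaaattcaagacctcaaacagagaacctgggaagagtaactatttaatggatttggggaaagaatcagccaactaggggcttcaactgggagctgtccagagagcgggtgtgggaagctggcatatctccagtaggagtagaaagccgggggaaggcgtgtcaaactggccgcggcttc
Casp12, chr9:5345226-5345429, plus strand: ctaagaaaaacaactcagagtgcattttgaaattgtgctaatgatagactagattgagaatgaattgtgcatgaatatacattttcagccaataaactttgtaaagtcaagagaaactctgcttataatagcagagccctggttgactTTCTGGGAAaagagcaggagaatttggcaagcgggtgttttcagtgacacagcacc
Mcl1, chr3:95658471-95658720, plus strand: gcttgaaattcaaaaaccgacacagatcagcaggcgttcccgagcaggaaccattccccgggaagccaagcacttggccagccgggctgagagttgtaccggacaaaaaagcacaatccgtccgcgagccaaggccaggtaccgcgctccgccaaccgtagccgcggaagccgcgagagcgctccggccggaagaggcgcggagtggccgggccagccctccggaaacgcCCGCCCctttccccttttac
*Ripk3* and *Mcl1* each held 1 GC box, a motif found in 32.7% of all 32851 promoter windows of 250 bases. *Casp12* held 1 gamma-activated site, found in 7.02% of windows, and *Mlkl* held none of the 4 motifs. *Ripk1*, which was not called, held 2 GC boxes in the window chr13:34002113-34002362. Its match to the gamma-activated site lay outside that window, in another window listed for the gene. *Casp8* and *Bcl2l1*, not called either, had matches to neither. Of the 7 members with an entry in the table (*Gsdmd* has none), 0 held the interferon-stimulated response element core, which 2.98% of windows hold, and 0 the ATF4-CHOP core, which 3.45% hold. These matches describe letters in a window and no binding.

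Of the necroptosis genes, *Ripk3* and *Mlkl* rose and *Ripk1* did not reach the threshold. *Ripk3* (ENSMUSG00000022221, chromosome 14 from 55784995 to 55788865 of GRCm38, minus strand, 10 merged exons), the kinase that phosphorylates MLKL, measured 1.09, 1.19, 0.61 and 0.88 FPKM in control mice A468, A472, A473 and A475. In *Usp39*-HKO mice A469, A470, A471 and A474 it measured 2.11, 1.75, 2.65 and 2.44 FPKM. Every *Usp39*-HKO liver was above every control liver (exact permutation test, two-sided, p = 0.0286, which is the lowest p possible with 4 livers per group). The mean rose from 0.94 ± 0.26 to 2.24 ± 0.39 FPKM (SD, n = 4 each), and the log2 fold change was 1.0 with a standard error of 0.25 and an adjusted p of 0.0147 from edgeR. These levels rest on 12 to 27 counts in control and 41 to 58 counts in *Usp39*-HKO livers. The call held in all 8 fits that left out 1 liver, with an adjusted p between 0.0143 and 0.0486, the highest without control mouse A475.

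*Mlkl* (ENSMUSG00000012519, chromosome 8 from 111311797 to 111338177, minus strand, 13 merged exons), the pseudokinase that executes necroptosis at the membrane, measured 3.36, 4.03, 3.08 and 2.50 FPKM in the control livers in the same order. In *Usp39*-HKO livers the values were 4.69, 7.41, 7.37 and 8.57 FPKM, so that mouse A469 lay just above the highest control and the other 3 well above it. The mean rose from 3.24 ± 0.63 to 7.01 ± 1.64 FPKM (SD, n = 4 each), a log2 fold change of 0.86 (edgeR; standard error 0.19, adjusted p = 0.00891) with no overlap between the groups. The call held in all 8 fits with 1 liver left out, and the log2 fold change then lay between 0.75 and 1.01. The deposited table has one total per gene, so isoforms of *Mlkl* were not separated.

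*Ripk1* (ENSMUSG00000021408, chromosome 13 from 34002363 to 34037147, plus strand, 12 merged exons), the kinase that stands at the branch between survival, apoptosis and necroptosis, measured 3.93, 3.92, 3.81 and 4.45 FPKM in control livers. The *Usp39*-HKO livers measured 4.86, 5.58, 5.48 and 6.52 FPKM, all above the controls. Relative to the median gene, the log2 fold change was 0.24 with a 95% interval from 0.03 to 0.45, and the adjusted p of 0.0944 from edgeR missed the threshold. Without TMM scaling it was 0.48 with an adjusted p of 0.0121. Of its exon bases, 6.12% are also those of the processed pseudogene *Gm17084* and 2.89% overlap *Serpinb6a* on the opposite strand, while the exons of the other 7 genes overlap no other gene.

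Among the caspases, the scarce *Casp12* rose and the abundant *Casp8* did not reach the threshold. *Casp12* (ENSMUSG00000025887, chromosome 9 from 5345430 to 5373032, plus strand, 11 merged exons), a caspase of the inflammatory group located at the endoplasmic reticulum, measured 0.88, 0.53, 0.64 and 0.55 FPKM in control livers. In *Usp39*-HKO livers it measured 0.99, 2.04, 1.23 and 2.39 FPKM, with mice A470 and A474 high and A469 close to the highest control. The mean rose from 0.65 ± 0.16 to 1.66 ± 0.66 FPKM (SD, n = 4 each), a log2 fold change of 1.11 (edgeR; standard error 0.29, adjusted p = 0.0188), on 20 to 31 counts in control and 37 to 87 counts in *Usp39*-HKO livers. The call was lost without control mouse A473 (adjusted p = 0.052), control mouse A475 (0.0612) or *Usp39*-HKO mouse A474 (0.0573) in edgeR, with a log2 fold change between 0.94 and 1.11 in these 3 fits.

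*Casp8* (ENSMUSG00000026029, chromosome 1 from 58795374 to 58847503, plus strand, 11 merged exons), the initiator caspase that cleaves RIPK1 and RIPK3, measured 14.8, 14.9, 15.5 and 17.9 FPKM in control livers and 20.3, 22.8, 18.4 and 23.9 FPKM in *Usp39*-HKO livers. The groups were apart in FPKM by a narrow margin, between control mouse A475 and *Usp39*-HKO mouse A471. After TMM scaling they overlapped, and the log2 fold change of 0.20 had a 95% interval from −0.02 to 0.42 (adjusted p = 0.186 from edgeR). Without TMM the log2 fold change was 0.44, with an adjusted p of 0.0171.

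*Gsdmd* (ENSMUSG00000022575, chromosome 15 from 75862327 to 75867408, plus strand, 10 merged exons), the pore former of pyroptosis, was the only one of the 8 genes with a lower mean in *Usp39*-HKO livers. It measured 15.3, 15.9, 15.3 and 13.0 FPKM in control livers and 12.9, 15.2, 15.3 and 11.2 FPKM in *Usp39*-HKO livers, and the groups overlapped. The lowest value was that of *Usp39*-HKO mouse A474, in which 5 of the other 7 genes had their highest FPKM and 4 their highest TMM-scaled CPM. The log2 fold change was −0.35 with a 95% interval from −0.66 to −0.04 (adjusted p = 0.096 from edgeR), and it was −0.12 without TMM scaling (adjusted p = 0.512).

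Of the guards of mitochondria, *Mcl1* rose and *Bcl2l1* did not reach the threshold. *Mcl1* (ENSMUSG00000038612, chromosome 3 from 95658788 to 95663176, plus strand, 3 merged exons) encodes a short-lived protein that holds BAK and the BH3-only proteins, and measured 32.8, 37.0, 37.4 and 35.2 FPKM in control livers. In *Usp39*-HKO livers it measured 45.3, 50.2, 55.4 and 65.3 FPKM, every value above the controls. The mean rose from 35.6 ± 2.08 to 54.1 ± 8.55 FPKM (SD, n = 4 each), and the log2 fold change relative to the median gene was 0.36 (edgeR; standard error 0.10, adjusted p = 0.028). Its call was lost in 5 of the 8 fits with 1 liver left out, with an adjusted p of 0.0835 without control mouse A468, 0.0576 without A473, 0.0797 without A475, 0.0708 without *Usp39*-HKO mouse A471 and 0.0753 without A474. With no filter on low values the adjusted p was 0.0795.

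*Bcl2l1* (ENSMUSG00000007659, chromosome 2 from 152780668 to 152831728, minus strand, 5 merged exons), the gene of BCL-XL, measured 8.72, 9.30, 9.65 and 10.3 FPKM in control livers. In *Usp39*-HKO livers it measured 16.2, 9.56, 15.0 and 12.9 FPKM, with mice A469 and A471 high and A470 among the controls. The log2 fold change was 0.27 with a 95% interval from −0.08 to 0.63 (adjusted p = 0.256 from edgeR). The SD between livers was 0.66 FPKM in control and 2.90 FPKM in *Usp39*-HKO mice. The liver of A470, lowest in *Bcl2l1* of its genotype, was second highest of the 8 livers in *Casp12*, and the liver of A469, highest in *Bcl2l1*, was the lowest *Usp39*-HKO liver in *Ripk1*, *Mlkl*, *Casp12* and *Mcl1*.

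Per length, the order of mean levels in control livers was *Mcl1*, *Casp8*, *Gsdmd*, *Bcl2l1*, *Ripk1*, *Mlkl*, *Ripk3* and *Casp12*, from 35.6 to 0.65 FPKM. The ranges of *Casp8* and *Gsdmd*, of *Ripk1* and *Mlkl* and of *Ripk3* and *Casp12* overlapped, and the other neighbours were apart. In *Usp39*-HKO livers *Mlkl* had a mean above that of *Ripk1* (7.01 against 5.61 FPKM), and it was above *Ripk1* in 3 of 4 *Usp39*-HKO livers and in 1 of 4 control livers, with overlapping ranges in both genotypes. *Casp8* was above *Gsdmd* in all 4 *Usp39*-HKO livers and in 2 of 4 control livers.

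Ratios of 2 genes within a liver do not depend on the scaling between libraries, and 5 were compared with exact permutation tests, two-sided, with p-values adjusted over the 5. None of the 5 passed after adjustment. The FPKM ratio of *Ripk3* to *Ripk1* had a geometric mean of 0.227 in control and 0.396 in *Usp39*-HKO livers, a log2 difference of 0.80 with every *Usp39*-HKO liver above every control (exact permutation p = 0.0286, adjusted p = 0.0714). The ratio of *Gsdmd* to *Casp12* was 23.4 and 8.67, a log2 difference of −1.43 with every *Usp39*-HKO liver below every control (exact permutation p = 0.0286, adjusted p = 0.0714). With 1 added to the FPKM, the log2 differences were 0.348 (exact permutation, adjusted p = 0.214) and −0.786 (0.143). The other 3 ratios overlapped between genotypes. The *Mcl1* to *Bcl2l1* ratio was 3.75 in control and 4.07 in *Usp39*-HKO livers, with an SD of the log2 ratio of 0.09 and 0.42. The *Casp8* to *Ripk1* ratio was 3.91 and 3.81 and the *Mlkl* to *Ripk3* ratio 3.50 and 3.09 (exact permutation p = 0.657 and 0.543).

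**Figure D3:**
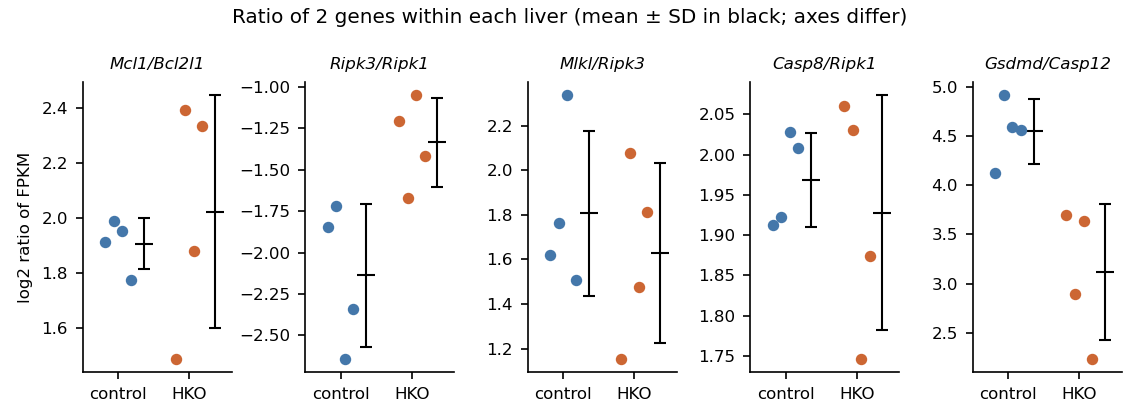
Log2 ratio of the FPKM of 2 genes within each liver (vertical axes, which differ between panels) in control (blue) and *Usp39*-HKO mice (orange), with the mean ± SD in black. *Ripk3*/*Ripk1* is higher and *Gsdmd*/*Casp12* lower in all 4 *Usp39*-HKO livers, and the *Mcl1*/*Bcl2l1* ratio spreads from 1.49 to 2.39 in *Usp39*-HKO livers against 1.78 to 1.99 in controls.

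Around these 8 genes, 75 of 87 other genes of the same pathways passed the filter. In edgeR 11 of them rose in *Usp39*-HKO livers, 7 fell and 57 did not pass the test, where 10.9% of all genes tested were called higher and 11.6% lower. As shares of the 75 these are 14.7% and 9.33%, near the background. The median log2 fold change was −0.033, close to that of all genes tested. The split depended on scaling. Without TMM 22 were higher, against 24.6% of genes tested, and 3 lower, with 4221 of 14340 genes called in either direction. With median-ratio size factors 12 were higher and 6 lower, with 3206 of 14340 genes called in either direction. Without control mouse A475 10 were higher, against 7.11% of genes tested, and 5 lower, with 2043 of 14340 genes called in either direction. Without *Usp39*-HKO mouse A474 9 were higher, against 7.19%, and 5 lower, with 2094 of 14340 called in either direction. Of the genes that rose in the main fit, *Tnfrsf10b*, *Bcl2* and *Bcl2a1a* passed the filter only through the *Usp39*-HKO livers.

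At the receptors, *Tnfrsf10b*, the mouse TRAIL receptor, rose from 0.143 ± 0.048 to 2.32 ± 0.37 FPKM (SD, n = 4 each), a log2 fold change of 3.75 (edgeR; standard error 0.25, adjusted p = 2.92e-05), on as few as 4 counts in a control liver. Every control liver was below 0.5 FPKM for *Tnfrsf10b*, so it passed the filter only through its *Usp39*-HKO values. The other 5 tested receptors and ligands did not pass. *Fas* had a log2 fold change of −0.16 and *Tnfrsf1a*, the TNF receptor that recruits RIPK1, of 0.22, while *Tnf* and *Fasl* had at most 7 and 9 counts in a liver and were not tested. Of the 15 adaptors and brakes of the receptor complex, *Tnip1*, a binding partner of the ubiquitin editor A20, rose by 0.83 on the log2 scale (adjusted p = 0.00291 from edgeR), and *Cyld*, a deubiquitinase that removes chains from RIPK1, fell by 0.45 (adjusted p = 0.0156). *Cflar*, the caspase-8 regulator c-FLIP, had a log2 fold change of −0.29 with an adjusted p of 0.0496, which was lost in all 8 fits with 1 liver left out. The calls of *Cyld* and *Cflar* were also lost without TMM scaling (adjusted p = 0.212 and 0.794), and that of *Cyld* without control mouse A473 (0.0557). *Fadd* had a log2 fold change of −0.30 (adjusted p = 0.224).

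Of the 5 caspases of apoptosis 0 were called in edgeR with TMM, with an unadjusted p under 0.05 for 2 of them, of which *Casp2* had a log2 fold change of 0.54. DESeq2 called 1 of the 5 and limma 2, and 2 passed in edgeR without TMM. *Casp9*, the initiator at the apoptosome, had a log2 fold change of −0.15 (adjusted p = 0.424 from edgeR). Its partners there rose: *Apaf1*, its scaffold, rose from 1.28 ± 0.08 to 2.56 ± 0.46 FPKM (SD, n = 4 each), a log2 fold change of 0.76 (adjusted p = 0.00333 from edgeR), and *Cycs*, cytochrome c, rose by 0.31 (adjusted p = 0.0314). The call of *Cycs* was lost in 5 of 8 fits with 1 liver left out.

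In the Bcl2 family, genes of opposite roles rose. *Bax*, which forms the mitochondrial pore, rose from 8.95 ± 2.19 to 20.5 ± 4.91 FPKM (SD, n = 4 each), a log2 fold change of 0.96 (adjusted p = 0.00776 from edgeR), and 12.2% of its exon bases are shared with a gene on the same strand. The pore former *Bak1*, the partner that MCL-1 and BCL-XL hold, had a log2 fold change of 0.29 (adjusted p = 0.0979). The BH3-only gene *Pmaip1*, whose product NOXA binds MCL-1, rose from 0.72 ± 0.23 to 2.08 ± 0.94 FPKM (SD, n = 4 each), a log2 fold change of 1.27 (adjusted p = 0.0142 from edgeR). Antiapoptotic *Bcl2* rose from 0.34 ± 0.06 to 0.88 ± 0.27 FPKM (SD, n = 4 each), a log2 fold change of 1.13 (adjusted p = 0.00565 from edgeR). *Bcl2a1a*, with 0 to 14 counts per liver and close copies in *Bcl2a1b* and *Bcl2a1d* between which reads may be split, had a log2 fold change of 1.87 (adjusted p = 0.029). Its call was lost in 4 of the 8 fits with 1 liver left out. For *Bcl2* and *Bcl2a1a* every control liver was below 0.5 FPKM, so both passed the filter only through their *Usp39*-HKO values. Of the BH3-only genes, *Bik* fell by 1.07 (adjusted p = 0.00827) and *Bnip3*, which acts mainly in mitophagy, by 0.62 on the log2 scale (adjusted p = 0.0074), the latter with 22.3% of its exon bases over an antisense gene, and *Bid* had a log2 fold change of −0.09. *Huwe1* and *Usp9x*, the ubiquitin ligase and the deubiquitinase known to set MCL-1 turnover, fell by 0.52 and 0.46 (adjusted p = 0.0123 and 0.0331 from edgeR). Neither passed without TMM scaling (adjusted p = 0.145 and 0.277), and the call of *Usp9x* was lost in 6 of 8 fits with 1 liver left out.

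Of 12 tested pyroptosis and inflammasome genes, 2 rose and 1 fell, where 10.9% of all genes tested were called higher and 11.6% lower. *Casp1*, the caspase that cuts gasdermin D downstream of inflammasomes, rose from 1.19 ± 0.20 to 2.45 ± 0.51 FPKM (SD, n = 4 each), a log2 fold change of 0.80 (adjusted p = 0.0144 from edgeR), which missed the threshold without control mouse A473 (0.0508). *Aim2*, a sensor of cytosolic DNA, rose by 0.95 (adjusted p = 0.00857). *Nlrp6*, a sensor expressed in hepatocytes and gut epithelium, fell from 35.1 ± 4.62 to 18.8 ± 5.51 FPKM (SD, n = 4 each), a log2 fold change of −1.14 (adjusted p = 0.00174 from edgeR). *Casp4* had a log2 fold change of 0.56 (adjusted p = 0.168), *Il18* of 0.003 and *Gsdme* of −0.02. Among the necroptosis partners *Pgam5*, a mitochondrial phosphatase, rose by 0.50 (adjusted p = 0.0106 from edgeR), with 58.1% of its exon bases over a gene on the opposite strand, and *Zbp1*, the nucleic acid sensor that engages RIPK3, had a log2 fold change of 0.005.

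**Figure D4:**
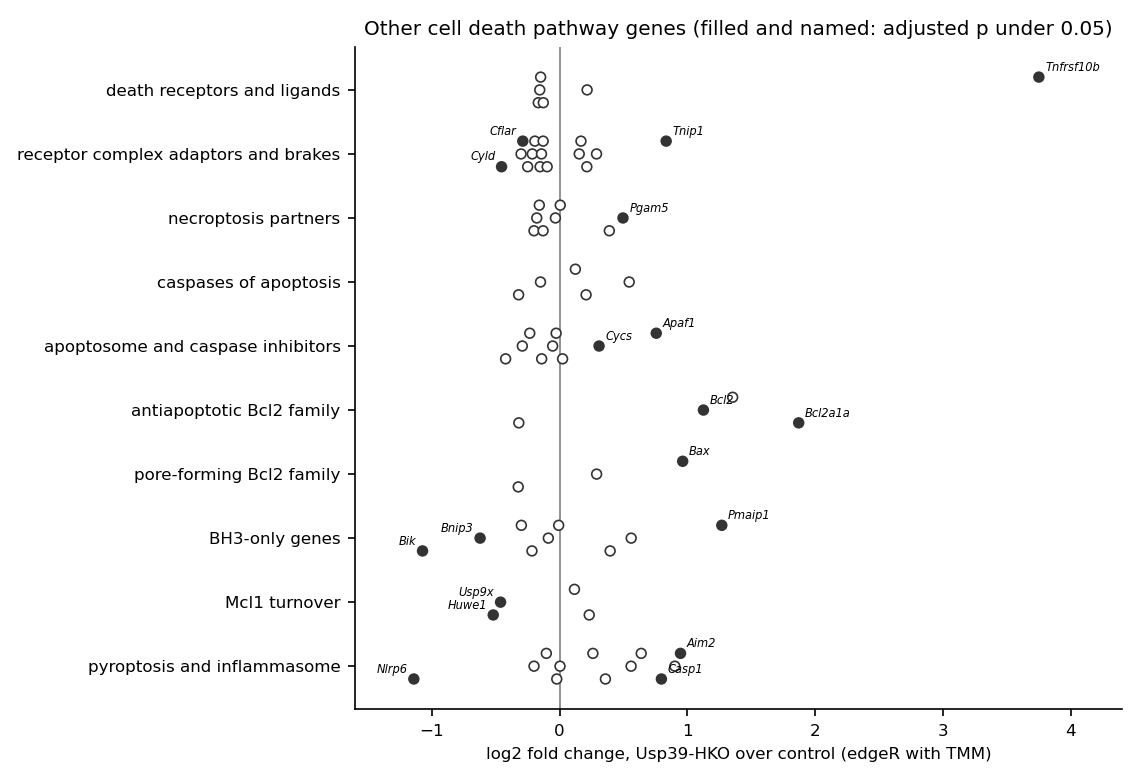
Change between genotypes (horizontal axis, log2 of *Usp39*-HKO over control, edgeR with TMM) of the 75 tested genes in 10 lists of cell death pathways, 1 circle per gene, with vertical offsets only for legibility. Filled circles are the 18 genes with an adjusted p under 0.05, of which 11 lie to the right of 0 and 7 to the left.

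The livers also differed in markers of other cells, and in bulk tissue fewer cells of a type and less RNA per cell cannot be told apart. For the marker counts below, the shares over all genes tested were 10.9% called higher and 11.6% called lower. Hepatocyte markers were abundant in every liver (summed level 15802 to 21331 FPKM), and 4 of 8 were called lower in *Usp39*-HKO livers. Of 10 macrophage and Kupffer cell markers 7 were called higher and 0 lower, with a summed level of 355 to 476 FPKM in control and 641 to 990 FPKM in *Usp39*-HKO livers. Stellate cell markers (4 of 6 higher) summed to between 54.7 and 60.4 FPKM in control and between 86.9 and 154 FPKM in *Usp39*-HKO livers, and cholangiocyte markers (4 of 4 tested higher) to between 26.4 and 28.7 FPKM and between 64.2 and 286 FPKM. The cholangiocyte sums were mostly *Spp1*, with 59.8 FPKM in *Usp39*-HKO mouse A469 and 263 FPKM in A474. In A469, *Krt19* and *Epcam* lay above every control liver, but *Sox9* (1.54 FPKM) lay within the control range. Of 6 endothelial markers 2 were lower, of 7 tested lymphocyte markers 1 was higher, and of 4 tested neutrophil markers 0 passed in edgeR, 1 (*Csf3r*) at an unadjusted p under 0.05, and 1 each in DESeq2 and limma. Erythroid markers fell (3 of 3 tested), with a summed level of 167 to 336 FPKM in control and 62.7 to 146 FPKM in *Usp39*-HKO livers. No marker listed was at 0 in all livers. The liver of *Usp39*-HKO mouse A474 had the highest sums for macrophages, stellate cells and cholangiocytes and the lowest for hepatocytes. Its hepatocyte sum (15802 FPKM) was close to that of *Usp39*-HKO mouse A470 (15900 FPKM). A474 also had the highest FPKM of *Ripk1*, *Mlkl*, *Casp8*, *Casp12* and *Mcl1* and the lowest of *Gsdmd*. Sums and levels in FPKM keep the shift of the median gene, and A474 had the largest TMM factor (1.19). In TMM-scaled CPM, *Casp8* was highest in *Usp39*-HKO mouse A470 (61.1, against 58.6 in A474). The part of these cell types in the changes of the 8 genes was not tested. Without A474, the log2 fold change was 1.0 for *Ripk3*, 0.80 for *Mlkl*, 0.94 for *Casp12* and 0.31 for *Mcl1*, and the calls of *Ripk3* and *Mlkl* were kept.

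**Figure D5:**
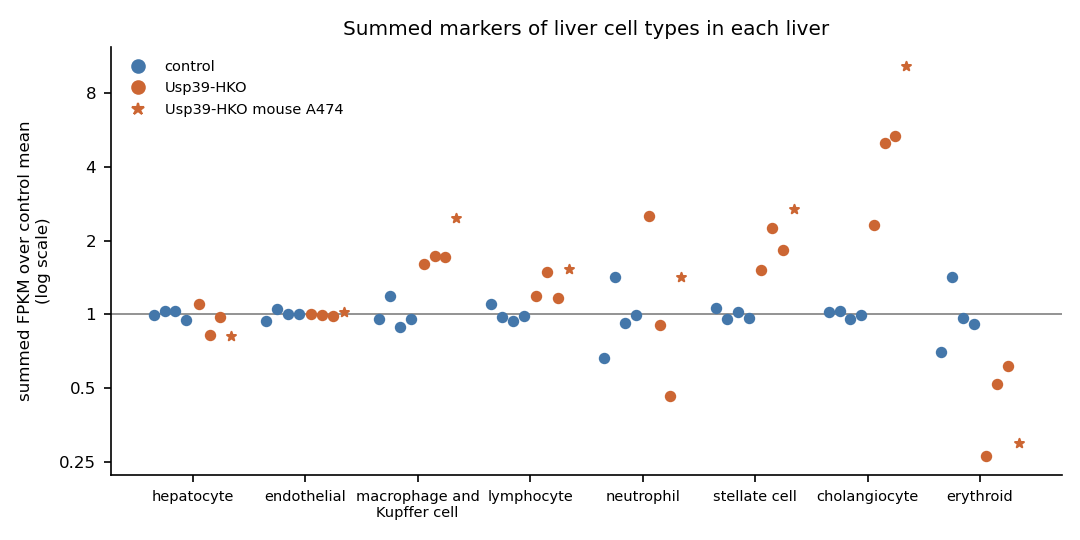
Summed FPKM of the markers of 8 cell types in each liver, divided by the mean of the 4 control livers (vertical axis, log scale), in control (blue) and *Usp39*-HKO mice (orange, with a star for mouse A474). Macrophage, lymphocyte, stellate cell and cholangiocyte sums are higher and erythroid sums lower in all 4 *Usp39*-HKO livers, and those of hepatocytes, endothelial cells and neutrophils overlap. FPKM sums keep the shift of the median gene, and of 7 tested lymphocyte markers 1 was called higher. The cholangiocyte sums are mostly *Spp1*.

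Over the 8 livers, the tested genes whose log2 CPM were most like each gene were, by Pearson correlation, *Tuba1a* (0.996) and *AI506816* (0.997) for *Mlkl*, *1700025G04Rik* (0.981) and *Pvt1* (0.980) for *Ripk3*, *Cd276* (0.990) for *Casp12*, and *Tceal9* (0.988) and *Elf3* (0.985) for *Mcl1*. For the genes that were not called they were *Fkbp10* (0.990) for *Ripk1*, *Ldhb* (0.962) for *Casp8*, *Agxt* (0.985) and *Gltpd2* (0.978) for *Gsdmd* and *Ctsl* (0.987) and *Mtrr* (0.979) for *Bcl2l1*, each picked as the highest of 14340 genes over the same 8 livers and 2 genotypes. The second gene for *Ripk1* and the first for *Casp8* have no symbol in the table. These likenesses describe the libraries only.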

How the data were processed

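RNA of 8 livers was sequenced (Illumina NovaSeq, paired ends). Per the labels, the authors used Trim Galore 0.6.1, FastQC 0.11.9, HISAT2 on mm10, Picard, featureCounts and DESeq2. The annotation, strand setting and treatment of multimapped reads were not given in the sources used here; the table's lengths of the 8 genes equal their merged exons in GENCODE vM21. The authors deposited raw counts per gene and FPKM, computed from those counts, exon length and the library total, which gave the FPKM back to within 5e-07. The deposited columns of the authors' own comparison (a mean normalized signal, log2 fold change, standard error and Wald score, and p-values) were not used. Of 55699 rows, 314 repeated an identifier, differed only in symbol and were read once.

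edgeR 4.0.16 (R 4.3.3) was fitted to the 2 genotypes without covariates, on genes that reached 0.5 FPKM in 4 or more livers. TMM factors were 0.911 to 0.94 in control and 1.01 to 1.19 in *Usp39*-HKO livers. Standard errors come from each fold change and F value, and 95% intervals from the t distribution of the fit. Alternatives used DESeq2 1.42.0, limma 3.58.1, other filters and scalings, and leaving out each liver. The script was tested on simulated data. Exact permutation tests cover the 70 assignments of 8 livers. Livers of one genotype differed beyond counting error (chi-square over degrees of freedom 5.88 to 35.9), so each counts as 1 replicate; the labels name mice, not cultures or pools. A floor of 3 counts is 0.288 to 0.349 CPM and covers counting error only. Exon overlap came from GENCODE vM21; BLAST+ 2.17.0+ found transcripts sharing at least 150 bases at 97% identity with another gene only for *Ripk1*.

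The 8 genes and the pathway and marker lists were chosen with earlier results of these data known. Named were the 8 genes, every called pathway gene and *Usp39*, *Casp9*, *Bax*, *Bak1*, *Bid*, *Fas*, *Tnfrsf1a*, *Fadd*, *Cflar*, *Bcl2*, *Casp1* and *Casp4*, and per gene the 2 genes most like it in pattern, apart from a few items that are not reported here; other names were added after their values were seen. No value within either genotype, for the 8 genes or the 5 ratios, stood apart by Dixon's test in the 26 groups checked.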

Additional observations from a re-analysis of the deposited data

How the results depend on the processing

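Directions of the 8 log2 fold changes were the same in every alternative run in which they were tested, and for *Ripk3* and *Mlkl* the call was too. *Ripk3*, *Casp12* and *Ripk1* could not be tested at a mean FPKM of at least 5. Of the remaining members, *Mlkl* and *Mcl1* were called there, and 1595 of all genes were. The share of genes tested that these 1595 make up was not computed. With 1 liver left out the 8 log2 fold changes lay between 0.205 and 0.291 for *Ripk1*, 0.854 and 1.13 for *Ripk3*, 0.748 and 1.01 for *Mlkl*, 0.164 and 0.255 for *Casp8*, 0.937 and 1.29 for *Casp12*, −0.422 and −0.236 for *Gsdmd*, 0.153 and 0.409 for *Bcl2l1* and 0.306 and 0.427 for *Mcl1*. Between 2 and 4 of the 8 genes and between 1931 and 3510 of all genes were then called. The count of 2 arose without control mouse A473 or A475 or *Usp39*-HKO mouse A474, where 1931, 2043 and 2094 of all genes were called instead of 3225. Calls were gained without TMM scaling, which gave 0.48 for *Ripk1*, 0.438 for *Casp8*, 0.502 for *Bcl2l1* and 7 calls, and in limma on log2(FPKM + 1), which gave 0.391 for *Ripk1* and 0.411 for *Casp8*, or 0.463 and 0.431 with a pseudocount of 0.1. These scales keep the shift of the median gene. *Mcl1* lost its call with no filter (0.331) and at the study's cutoff (unadjusted p under 0.05 and a change beyond 0.5 on the log2 scale), with 0.36. In exact permutation tests on TMM-scaled CPM, *Casp8* fell short (log2 ratio 0.199, p = 0.0571). With 1 liver left out, the difference of the log2 ratio of *Mcl1* to *Bcl2l1* lay between −0.0068 and 0.296, that of *Casp8* to *Ripk1* between −0.0844 and 0.0206. With 1 added to the FPKM, the differences for *Mlkl* to *Ripk3* and *Casp8* to *Ripk1* changed sign to 0.164 and 0.0195, and those for *Ripk3* to *Ripk1* and *Gsdmd* to *Casp12* shrank from 0.803 to 0.348 and from −1.43 to −0.786. The cause of these sign changes was not tested, and none of the 3 ratios that changed sign separated the genotypes. Of the 75 tested pathway genes, 18 were called, and 25 without TMM, where 4221 of 14340 genes were. In alternatives chosen after seeing the data, 15 were called without control mouse A475 and 14 without *Usp39*-HKO mouse A474. No paired analysis was possible because the labels pair no control mouse with a *Usp39*-HKO mouse. Counts of 12 to 58 for *Ripk3* and 20 to 87 for *Casp12* limit the precision of both.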
